A study of Arabidopsis thaliana with 36 samples.

Results

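The transcripts described here rose in wild type Arabidopsis leaves after both of the sprays used, antimycin A and hydrogen peroxide, and kept most of their antimycin A change in rao2 and anac017-1, mutants of the transcription factor gene ANAC017. A probe set was taken when its mean log2 level in wild type was at least 2 higher after antimycin A and at least 1.5 higher after hydrogen peroxide than after water, with all 3 arrays of each spray above all 3 water arrays. Its antimycin A change in rao2 and in anac017-1 also had to be at least 50% of that in wild type. The rule gave 160 of 22746 probe sets, and 6 were left out by name (STZ, AT1G05340, AT1G19020, AT1G57630, AT5G14730 and UGT73B4), which left 154 members. The gene table gave 1 gene for 93 of them, several genes for 3 and no entry for 58, so the names to be left out could not be looked for in those 58. The members were thus chosen on 4 changes: antimycin A and hydrogen peroxide in wild type, and antimycin A in rao2 and anac017-1. Those changes are described below without a test.

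Leaf RNA of 14-day-old seedlings was measured on 36 one-colour Affymetrix ATH1 arrays, 3 for each of 12 groups. The groups crossed 4 genotypes with 3 sprays: 50 µM antimycin A, 20 mM hydrogen peroxide or water, each applied 4 h into the light period, with all green leaf tissue taken 3 h later. Wild type was Columbia, named Col:LUC in its sample labels. The mutant rao2 came from chemical (EMS) mutagenesis, anac017-1 was called a T-DNA knock-out of ANAC017, and anac017-2 was called a gain of function mutant of the same gene. All plants grew on Gamborg B5 medium with 3% sucrose at 22 °C under 16 h of light. Whether the mutants carried the luciferase transgene, and whether replicates came from separate plates, was not stated, so p-values cover no more than the spread among the samples at hand. ANAC017 had no probe set in the gene table, so the genotype labels could not be checked on its transcript.

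Antimycin A blocks electron flow through complex III of the mitochondrial respiratory chain, and the nucleus answers with a retrograde response. ANAC017 is a NAC transcription factor held at the endoplasmic reticulum by a membrane anchor, from which it is cut and moves to the nucleus. Hydrogen peroxide is a reactive oxygen species that cells use as a signal and that damages them in excess. In leaves such stresses are known to switch on calcium sensor proteins, ethylene response factors, receptor kinases and TIR domain immune receptors, within hours or less.

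Deposited values had array medians of 77.7 to 83.6 on the linear intensity scale, and replicate arrays correlated at 0.983 to 0.997 across probe sets. The first principal component took up 56.3% of the variance. Wild type, rao2 and anac017-1 after antimycin A lay between -118.41 and -80.56 on it, and the 3 antimycin A arrays of anac017-2 lay apart from them at 23.0, 31.0 and 14.3. The hydrogen peroxide array of anac017-2 replicate 2 lay at 9.12, away from 43.8 and 35.8 for replicates 1 and 3. The leaf genes RCA (Rubisco activase) and PRK (phosphoribulokinase) were the 2 leaf markers measured of 12 listed, and their summed log2 level was 14.7 to 15.2 on all arrays. Markers are called measured here if the gene table named a probe set for them. RCA varied little, but from water to antimycin A the mean of PRK went from 12.68 to 12.06 in wild type, 12.72 to 12.34 in rao2 and 12.86 to 12.05 in anac017-1, and from 12.83 to 13.34 in anac017-2. Guard cell markers, 2 measured of 6, included FMA, a guard cell transcription factor, which went from 6.76 to 5.83, 6.64 to 6.22, 6.62 to 5.69 and 6.54 to 6.57 in the same order of genotypes. The summed guard cell level was 10.99 to 12.32. The means of PRK and FMA were thus lower after antimycin A in each genotype except anac017-2, and their part in the results was not tested. The root hair expansin EXPA7, the 1 root marker measured of 9, and the meristem gene CLV3, the 1 measured of 4, were not above background in any group. The ratio of 3′ to 5′ control probe sets, a sign of RNA quality, averaged 3.10 in log2 in wild type under antimycin A, 3.38 in rao2, 3.48 in anac017-1 and 3.16 in anac017-2. It was thus highest in rao2 and anac017-1 under that spray, and its part in the results was not tested. In whole leaves, fewer cells of a type and less of a transcript per cell cannot be told apart.

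In wild type the members were low after water and high after antimycin A. Their median log2 level on the 3 arrays, from lowest to highest, was 4.18, 4.36 and 4.94 after water, 6.79, 6.80 and 6.95 after hydrogen peroxide, and 9.09, 9.15 and 9.28 after antimycin A. These 3 ranges did not overlap. The antimycin A change of a member had a median of 4.46 and ran from 2.08 to 9.18, and the hydrogen peroxide change had a median of 2.02 and ran from 1.504 to 6.21. The antimycin A change was the larger for 150 of the 154 members, with a median gap of 2.23. The glucan hydrolase gene AT3G04010 was the only named exception, at 2.26 for antimycin A and 2.38 for hydrogen peroxide, and the other 3 were probe sets without a gene. Both changes share the same water arrays and chose the members, so their order is a description.

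**Figure D1:**
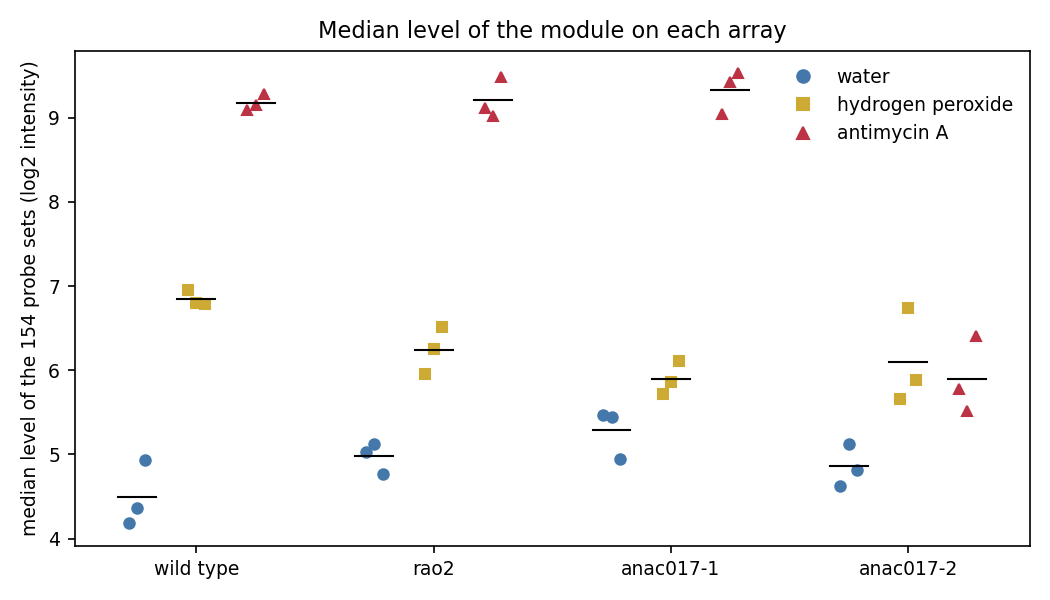
Median log2 intensity of the 154 members on each of the 36 arrays (vertical axis), by genotype and spray; points are arrays and lines are means of 3 arrays. The antimycin A arrays of wild type, rao2 and anac017-1 sit between 9.02 and 9.53, and those of anac017-2 between 5.52 and 6.41.

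AT4G39670, a member of the glycolipid transfer protein family, had the largest values for both sprays. Its log2 level in wild type was 2.24, 2.15 and 2.29 after water, 8.64, 8.83 and 7.83 after hydrogen peroxide, and 11.12, 11.33 and 11.78 after antimycin A. All 3 water values lay at or below the lower quartile of their array (2.45 to 2.56 in log2), taken here as not above background, so the changes are bounds: at least 8.90 for antimycin A and at least 5.92 for hydrogen peroxide. AT1G22810 encodes an ethylene response factor, a DNA-binding protein of the AP2 family. Its wild type level was 2.10, 2.49 and 2.02 after water, 7.43, 6.38 and 5.20 after hydrogen peroxide, and 9.19, 10.43 and 10.48 after antimycin A. Again no water array was above background, and the bounds were at least 7.52 and at least 3.82.

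Other members with large changes in wild type had varied roles. AT3G01830, a calmodulin-like calcium sensor, stood at 2.21, 3.67 and 6.87 after water, 8.20, 7.98 and 7.48 after hydrogen peroxide, and 11.28, 11.32 and 11.24 after antimycin A. One water array was thus only a little below the hydrogen peroxide arrays. AT1G24140, a matrix metalloproteinase of the cell surface, stood at 1.59, 1.63 and 4.71 after water, 6.32, 6.19 and 6.36 after hydrogen peroxide, and 9.05, 9.17 and 9.33 after antimycin A. AT1G66090, a protein with a TIR and a nucleotide-binding domain, stood at 2.35, 5.92 and 5.40, then 8.19, 8.01 and 7.73, then 9.82, 9.96 and 9.75, in the same order of sprays. In each of these genes the water arrays differed far more from one another than the antimycin A arrays did. ZCF37, AT3G10930, AT4G22980, AT5G10695, AT2G20670, CML37 and SIS completed the 12 genes with the largest smaller change, with antimycin A changes of 4.62 to 8.47 and hydrogen peroxide changes of 2.95 to 3.90. CML37 and AT2G20670 were not above background on any wild type water array, so their changes are bounds too.

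Some members lay close to the limits of the rule. AT1G04990 and AT5G57910 were just inside the antimycin A limit at 2.17 and 2.22, with AT3G10020 and AT2G24550 just outside at 1.94 and 1.92. For hydrogen peroxide, AT4G28703 and AT3G09405 were inside at 1.51 and 1.52, and AT4G24380 and AT1G51920 outside at 1.496 and 1.494. The lowest shares kept in rao2 were 0.51 for AT2G41380 and 0.52 for AT4G22530, and in anac017-1 0.50 for AT1G30260 and 0.53 for AT5G18600, while PUB19 missed at 0.49.

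After antimycin A the median level of the members in rao2 and anac017-1 overlapped that in wild type, while the rule asked for at least 50% of the wild type change. The median level was 9.02, 9.12 and 9.49 in rao2 and 9.05, 9.42 and 9.53 in anac017-1. The median share of the wild type change was 88.7% in rao2 (51.2% to 141.8%) and 87.7% in anac017-1 (50.1% to 144.8%), and 50 and 48 members were at or above the wild type change. CML37, a calmodulin-like calcium sensor, was the higher in both mutants: 7.75, 8.08 and 6.83 in wild type, 9.78, 9.70 and 9.61 in rao2, and 9.31, 9.57 and 9.34 in anac017-1. AT2G38250, a trihelix transcription factor, was the lower in both, at 7.59, 7.83 and 8.73 in wild type, 6.50, 5.92 and 6.97 in rao2, and 6.28, 6.07 and 6.73 in anac017-1. Neither gene's mutant arrays overlapped the wild type arrays. Among other members, AT1G66090 was likewise higher and ZCF37 lower in both mutants on all arrays. The rule used all of these arrays, so such gaps are descriptions, although the genes were named for other values.

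**Figure D2:**
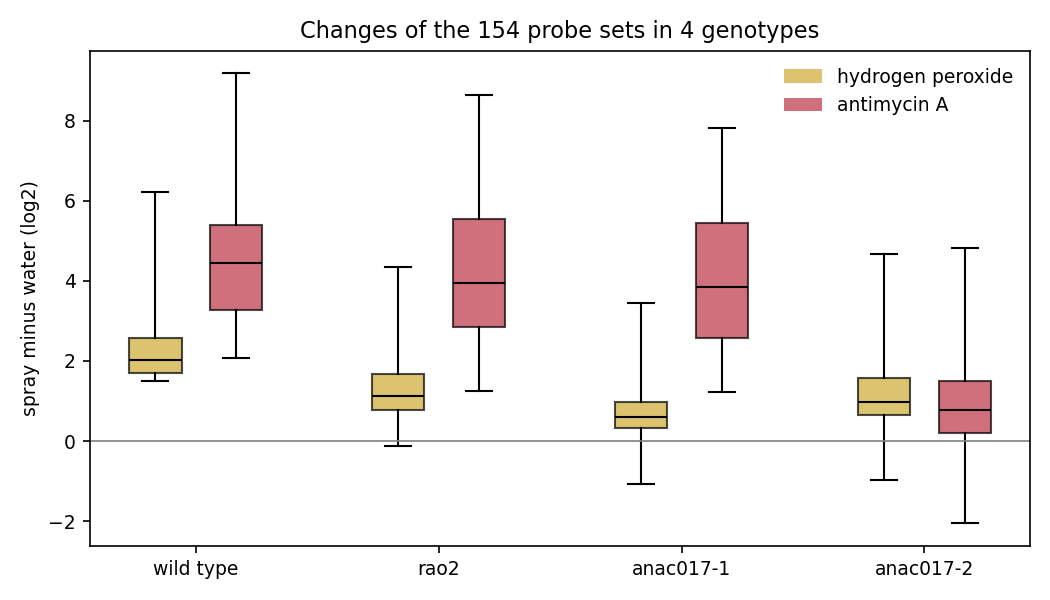
Change of each member, spray minus water in log2 (vertical axis), in 4 genotypes; boxes show the quartiles and median over 154 members, whiskers the lowest and highest member. The medians under antimycin A are 4.46, 3.94, 3.85 and 0.78 in wild type, rao2, anac017-1 and anac017-2.

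The arrays of anac017-2 had no part in the choice of members, and there the antimycin A changes were small. The median member level was 4.63, 4.82 and 5.12 after water and 5.52, 5.78 and 6.41 after antimycin A, so the arrays did not overlap, but the antimycin A arrays lay more than 2 log2 units below those of every other genotype. The median change was 0.78, against 0.00 over all probe sets. With limma, 44 of 154 members were called higher at an adjusted p under 0.05, where 6.90% of all probe sets were, and 6 were called lower, where 8.39% were. The count called higher fell to 25 without anac017-2 antimycin A replicate 3 and to 28 without water replicate 3. The change was 17.6% of that in wild type at the median; 15 members reached 50% and 27 were below 0. The other 805 probe sets with a wild type antimycin A change of at least 2 had a median of 11.8% in anac017-2 (0.32 in log2). The change was lower than in both rao2 and anac017-1 for 145 members. Since the wild type and mutant changes chose the members, these gaps are descriptions.

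Several members did rise in anac017-2 after antimycin A. AT4G28140, an ethylene response factor, stood at 5.28, 4.40 and 2.82 after water and 8.55, 7.66 and 8.05 after antimycin A, a change of 3.92 ± 0.59 (± is the standard error of the fit; limma adjusted p = 8.33e-05). In wild type its change was 3.50, so it was 1 of 3 members at or above the wild type change in anac017-2. SIS, a serine-rich protein known for its rise under salt, stood at 1.90, 3.58 and 1.88 after water and 5.72, 5.35 and 6.93 after antimycin A (3.54 ± 0.73; adjusted p = 0.00167), against 4.62 in wild type. AT1G30260 rose from 5.52, 5.61 and 5.09 to 7.28, 7.66 and 8.03 (2.25 ± 0.29; adjusted p = 1.3e-05), beside 2.51 in wild type. The levels of these 3 genes after antimycin A overlapped between anac017-2 and wild type.

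Other members rose in anac017-2 by far less than in wild type. AT4G39670 stood at 2.19, 3.91 and 2.21 after water and 6.59, 5.68 and 6.87 after antimycin A (3.61 ± 0.68; adjusted p = 0.000768), and no antimycin A array came within 4 log2 units of the wild type ones. ZCF37 rose by 3.77 ± 0.74 (adjusted p = 0.00112), with 8.47 in wild type. AT5G52750, a protein with a heavy metal binding domain, rose by 2.33 ± 0.48 (adjusted p = 0.00157), with 4.80 in wild type. AT3G10930 rose by 2.59 ± 0.55 (adjusted p = 0.00207), AT1G24140 by 2.74 ± 0.76 (adjusted p = 0.0146) and AT1G22810 by 1.86 ± 0.49 (adjusted p = 0.0104). The call for AT1G22810 was lost without water replicate 2 (adjusted p = 0.0569) and that for AT1G24140 without antimycin A replicate 3 (adjusted p = 0.116), water replicate 1 (0.0605) or water replicate 3 (0.0641).

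**Figure D3:**
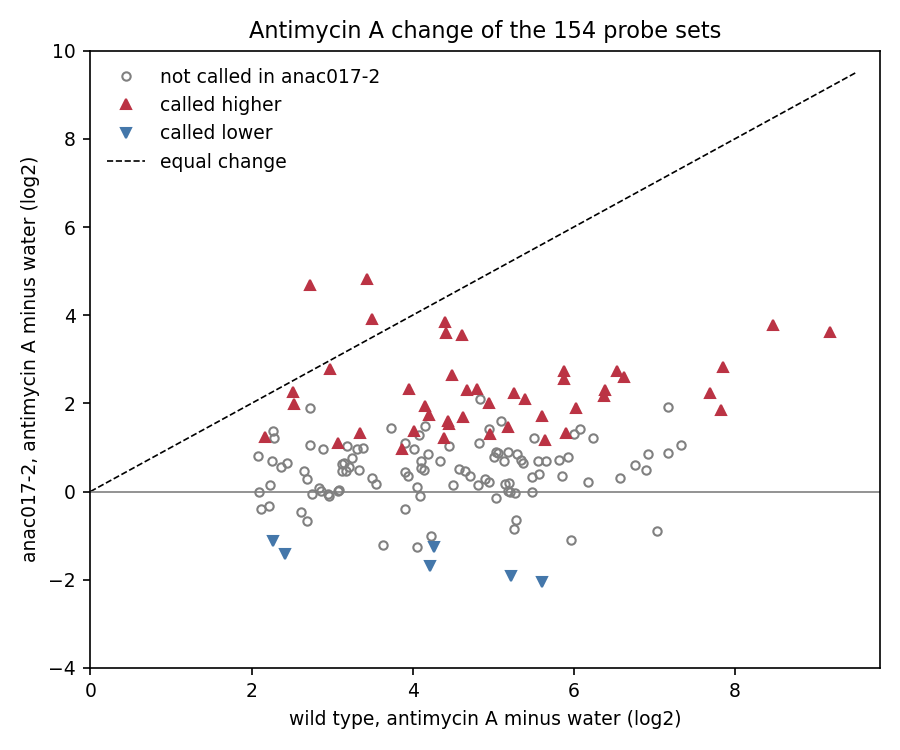
Antimycin A minus water in wild type (horizontal axis, log2) and in anac017-2 (vertical axis, log2) for the 154 members; filled triangles passed limma's adjusted p under 0.05 in anac017-2, 44 upward and 6 downward, and the dashed line marks equal changes. Nearly all points lie under the line, with 151 of 154 members lower in anac017-2.

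In 9 of the 154 members all 3 antimycin A arrays of anac017-2 lay below all 3 water arrays, a smaller share than the 19.2% of all probe sets. With limma 6 members were called lower (3.90%, against 8.39% of all probe sets), each of them higher after antimycin A in wild type. AT4G22980, which resembles molybdenum cofactor sulfurases, stood at 4.57, 5.25 and 4.62 after water and 2.36, 2.48 and 3.45 after antimycin A (-2.05 ± 0.54; adjusted p = 0.00988). Its wild type level went from 2.93, 2.47 and 2.67 to 7.95, 7.77 and 9.19. AT2G29065, a GRAS family transcription factor gene, went from 4.58, 4.90 and 4.26 to 3.17, 3.31 and 3.50 in anac017-2 (-1.25 ± 0.32; adjusted p = 0.00839), and from 1.96, 3.16 and 1.94 to 6.30, 6.70 and 6.86 in wild type. Both genes thus started higher in anac017-2 than in wild type. AT1G05575 fell by 1.92 ± 0.49 (adjusted p = 0.0079), although antimycin A replicate 3 at 8.39 lay among the water arrays of 8.23, 8.74 and 8.35. AT1G08050, a RING finger protein, fell by 1.69 ± 0.51 (adjusted p = 0.0235), with 2 of 3 antimycin A arrays not above background. The glucan hydrolase AT3G04010 went from 8.63, 8.96 and 9.29 to 8.14, 7.77 and 7.59 (-1.13 ± 0.30; adjusted p = 0.0122). The sixth member had no gene in the table. Calls were lost for AT1G05575 without antimycin A replicate 1 (adjusted p = 0.0687) or 2 (0.0651), for AT3G04010 without antimycin A replicate 3 (0.0601) or water replicate 3 (0.0736), and for AT1G08050 without antimycin A replicate 2 (0.136) or 3 (0.0893) or water replicate 1 (0.0623) or 2 (0.0871).

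**Figure D4:**
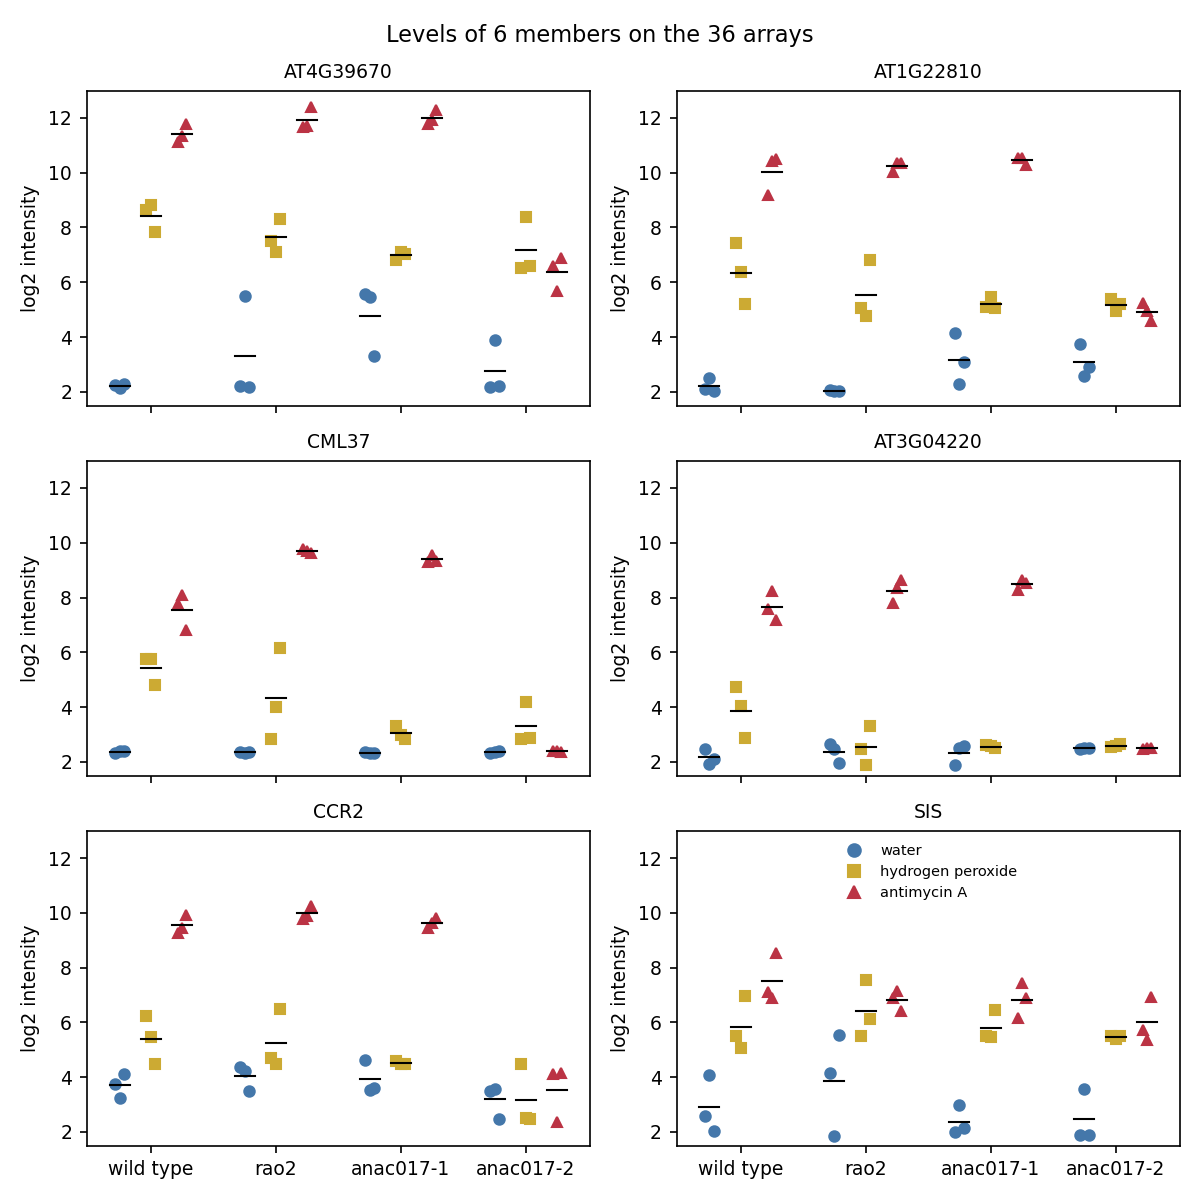
Levels of 6 members in log2 intensity (vertical axis) on all 36 arrays, by genotype and spray; points are arrays and lines are means of 3 arrays. In anac017-2 after antimycin A, CML37 stays at 2.36 to 2.41 and AT3G04220 at 2.48 to 2.50, while SIS reaches 5.35 to 6.93.

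Hydrogen peroxide raised members in anac017-2 as well. Their median level was 5.66, 5.89 and 6.74, above all 3 water arrays, and the median change was 0.99, against 0.01 over all probe sets. With limma, 39 members were called higher, where 4.18% of all probe sets were, and 0 were called lower, where 4.84% were. At an unadjusted p under 0.05 the counts were 86 and 0, beside 2397 and 2570 of all 22746 probe sets. The count called higher was 18 without hydrogen peroxide replicate 2, the array that stood apart, and 21 without water replicate 1 or water replicate 3. AT4G39670 had the largest named change, to 6.52, 8.40 and 6.61 (4.41 ± 0.68; adjusted p = 0.000333). AT1G22810 rose to 5.39, 4.96 and 5.20 (2.11 ± 0.49; adjusted p = 0.00767). AT5G10695 rose from 7.57, 8.16 and 8.13 to 9.79, 9.64 and 9.93 (1.83 ± 0.31; adjusted p = 0.000767), and AT1G32120 from 3.82, 3.76 and 3.61 to 5.20, 6.07 and 5.06 (1.72 ± 0.34; adjusted p = 0.00241). These 4 calls held when any 1 of the 6 arrays compared was left out. SIS was called at 3.02 ± 0.73 (adjusted p = 0.0106), but not without water replicate 1 (0.0523) or 3 (0.0589). AT5G39030, a receptor-like kinase, stood at 4.12, 7.37 and 3.96, and its call (2.40 ± 0.76; adjusted p = 0.0462) was lost without replicate 2 (0.383) or water replicate 1 (0.0734), 2 (0.0809) or 3 (0.195).

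The sprays were also set against each other within anac017-2. In wild type antimycin A gave the larger change for nearly all members, whereas in anac017-2 the median difference was -0.26 (-0.48 to 0.06 with single arrays left out, so its sign turned), with 4 members called higher after antimycin A than after hydrogen peroxide (2.18% of all probe sets) and 20 called lower (3.04%). The 4 were AT4G28140 (2.10 ± 0.59; adjusted p = 0.0371), AT5G52750 (1.63 ± 0.48; adjusted p = 0.045), AT1G30260 (1.20 ± 0.29; adjusted p = 0.0123) and a probe set without a gene. Among the 20, AT4G22980 had the largest difference (-3.00 ± 0.54; adjusted p = 0.000891), followed by the TIR protein AT1G66090 (-2.58 ± 0.76; adjusted p = 0.0446). Its arrays were 2.59, 5.52 and 7.05 after antimycin A and 7.31, 7.53 and 8.07 after hydrogen peroxide. Also lower were AT3G04010 (-1.65 ± 0.30; adjusted p = 0.00134), AT2G29065 (-1.70 ± 0.32; adjusted p = 0.00153) and AT5G57910 (-1.18 ± 0.23; adjusted p = 0.00241). The counts turned on single arrays: 1 called higher without antimycin A replicate 1 or 3, 2 without hydrogen peroxide replicate 3 and 7 without hydrogen peroxide replicate 2, and 10 and 13 called lower without antimycin A replicate 2 and hydrogen peroxide replicate 3. The calls higher after antimycin A were each lost without single arrays, AT4G28140 in 5 cases (adjusted p from 0.06 to 0.145), AT5G52750 in 5 (0.0511 to 0.233) and AT1G30260 in 2 (0.074 and 0.0982), as was that of AT1G66090 in 5 (0.0523 to 0.344).

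Under hydrogen peroxide rao2 and anac017-1 did not keep the wild type level of the members. Their median level was 5.96, 6.25 and 6.52 in rao2 and 5.72, 5.86 and 6.11 in anac017-1, all below the wild type arrays at 6.79 to 6.95. The median change was 1.13 in rao2 and 0.60 in anac017-1, or 54.9% and 29.7% of the wild type change, and it was lower than in wild type for 139 and 152 members. In anac017-2 the share was 49.0%. The wild type changes chose the members, which favours high wild type values, so these shares are no test of a genotype difference. Whether the members depend on ANAC017 was not tested by these values, so the members are named here by the rule alone.

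Counts of calls in rao2 and anac017-1 carry a limit of their own, because the rule used their water arrays through the antimycin A change. In rao2, 54 members were called higher after hydrogen peroxide (5.12% of all probe sets) and 0 lower (6.30%), and in anac017-1 11 were called higher (0.783%) and 0 lower (0.637%). At an unadjusted p under 0.05 the counts were 88 and 45 higher, with 0 lower in each. Over all 22746 probe sets, 2385 and 1344 were higher and 2845 and 1414 lower at that unadjusted limit. The rao2 count called by limma at the adjusted limit was 35 without its hydrogen peroxide replicate 3. The anac017-1 count was 5, 4 and 3 without its hydrogen peroxide replicates 1, 2 and 3, and 3 and 2 without its water replicates 2 and 3. SIS, AT1G22810 and AT5G10695 were the named genes of the rule that were called in rao2, anac017-1 and anac017-2 alike, as was AT5G65300. The call of AT5G65300 was lost without 3 of the 6 arrays compared in anac017-2 (adjusted p from 0.0579 to 0.143) and 4 in anac017-1 (a change of 0.71 to 1.04). AT5G10695 went from 6.36, 7.09 and 6.94 to 9.66, 9.71 and 10.34 in rao2, and from 8.46, 7.78 and 7.28 to 10.11, 9.53 and 9.43 in anac017-1. In anac017-1 the call of AT1G22810 was lost without any 1 of 5 arrays (change of 1.59 to 2.10) and SIS was not called when replicate 3 of the spray (3.13) or of water (3.32) was dropped. In rao2 SIS was not called when replicate 2 of the spray (1.98) or of water (1.55) was dropped. In all, 10 members were called after hydrogen peroxide in each of the 3 mutants, and 88 in none of them. The matching shares of all probe sets were not counted, so these joint counts are descriptions only.

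The hydrogen peroxide arrays of rao2 and anac017-1 had no part in the choice and could be compared directly. The median difference, rao2 minus anac017-1, was 0.25 (0.06 to 0.40 with single arrays left out), with 6 called higher (1.97% of all probe sets) and 1 called lower (3.68%). AT3G09020, a glycosyltransferase, stood at 4.58, 6.22 and 5.13 in rao2 and 2.38, 3.02 and 3.79 in anac017-1 (2.25 ± 0.68; adjusted p = 0.0485). The calmodulin-like AT5G39670 stood at 5.30, 4.98 and 6.56 against 3.68, 3.40 and 3.06 (2.23 ± 0.67; adjusted p = 0.0491), and AT1G32120 at 5.87, 5.38 and 5.59 against 4.62, 4.17 and 3.91 (1.38 ± 0.34; adjusted p = 0.0129). In these 3 genes the groups did not overlap, as in 27 members that were higher in rao2 on all arrays, beside 10.4% of all probe sets. In 13 members all rao2 arrays were lower, beside 17.1%. AT4G22980 was the member called lower, at 3.80, 3.11 and 3.57 in rao2 and 5.54, 4.56 and 6.28 in anac017-1 (-1.97 ± 0.54; adjusted p = 0.0265). The count called higher was 3, 2, 3, 3 and 2 without rao2 replicate 2 or 3 or anac017-1 replicate 1, 2 or 3, and AT4G22980 was not called without rao2 replicate 2 (0.128) or 3 (0.0591) or anac017-1 replicate 1 (0.0757) or 3 (0.166). AT5G39670 was not called without any 1 of the 6 arrays (0.0621 to 0.214), AT3G09020 in 5 of 6 cases (0.0512 to 0.26), and AT1G32120 without rao2 replicate 1 (0.0617) or anac017-1 replicate 3 (0.0754). As a difference of responses, with the water arrays included, rao2 exceeded anac017-1 by a median of 0.53, and limma called 0 members higher (0.00% of all probe sets) and 0 lower (0.00879%), with 20 and 0 at an unadjusted p under 0.05. Over all 22746 probe sets, 481 were higher and 630 lower at that unadjusted limit.

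Without a stress spray some members already stood higher in the mutants than in wild type. The rule favours low wild type water values, which also raise these differences, so they are descriptions and their counts are not independent of the choice. The median difference from wild type after water was 0.33 in anac017-2, 0.31 in rao2 and 0.55 in anac017-1, and with single arrays left out it ran from 0.17 to 0.53, 0.12 to 0.49 and 0.40 to 0.72. With limma, 9 members were called higher in anac017-2 (0.426% of all probe sets), 1 in rao2 (0.0747%) and 17 in anac017-1 (3.76%), and 0 were called lower (0.0791%, 0.0572% and 1.67%), with 2, 1 and 1 lower at an unadjusted p under 0.05. Over all 22746 probe sets, 949, 659 and 2144 were lower at that unadjusted limit. AT2G29065 was called in all 3 mutants: its water level was 1.96, 3.16 and 1.94 in wild type, 3.82, 4.24 and 4.17 in rao2, 4.60, 4.59 and 4.14 in anac017-1, and 4.58, 4.90 and 4.26 in anac017-2. No mutant array overlapped wild type, although the rao2 call was lost without its water replicate 2 (1.64) or 3 (1.68) or wild type replicate 1 (1.53) or 3 (1.52).

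**Figure D5:**
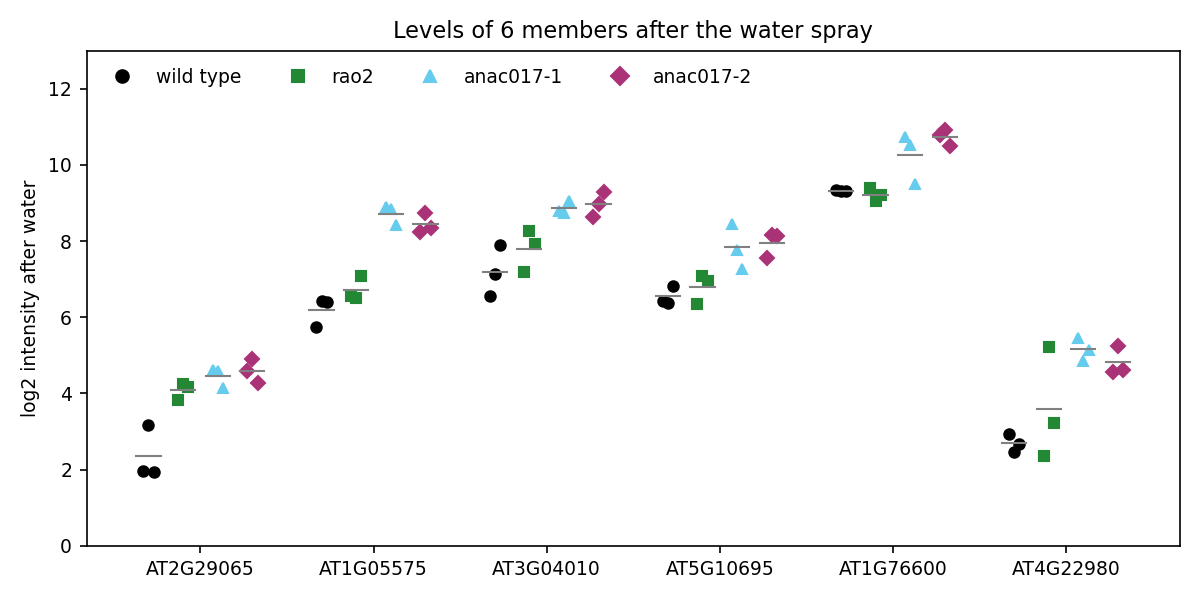
Levels of 6 members in log2 intensity after the water spray (vertical axis) in 4 genotypes; points are arrays and lines are means of 3 arrays. AT1G05575 sits at 5.74 to 6.42 in wild type, at 8.42 to 8.89 in anac017-1 and at 8.23 to 8.74 in anac017-2.

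The same water pattern was seen in anac017-1 and anac017-2 for a few other genes. AT1G05575 stood at 5.74, 6.42 and 6.40 in wild type, 8.89, 8.84 and 8.42 in anac017-1, and 8.23, 8.74 and 8.35 in anac017-2, with rao2 at 6.55, 6.50 and 7.07. AT3G04010 stood at 6.55, 7.14 and 7.90 in wild type, 8.78, 8.75 and 9.05 in anac017-1, and 8.63, 8.96 and 9.29 in anac017-2. AT5G10695 was 1.29 higher in anac017-1 and 1.41 higher in anac017-2, with a difference of 0.25 in rao2. AT1G76600 was 1.42 higher in anac017-2, and AT4G22980 2.46 higher in anac017-1. In anac017-2 the calls of AT1G05575 and AT1G76600 were each lost without any 1 of the 6 arrays compared (adjusted p from 0.0576 to 0.165 and from 0.0599 to 0.155). That of AT5G10695 was lost without 4 of them in anac017-2 (0.137 to 0.203) and without 3 in anac017-1 (0.0502 to 0.113). The 3 mutants were compared with the same 3 wild type water arrays. The anac017-2 count was 4 without its water replicate 2 or 3 or wild type water replicate 1. The rao2 count was 0 without its water replicate 2 or 3 or wild type water replicate 1, and 2 without wild type water replicate 3. In anac017-1 the count was 10 without its water replicate 1 or 2 or wild type water replicate 1, 11 without wild type replicate 2 and 26 without wild type replicate 3.

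By role, the named members included 7 genes of immune receptor type (6 with TIR domains and AT3G26470 with an RPW8 domain). Besides these there were 8 kinases and phosphatases, 5 transcription factors, 4 calcium sensors, 2 proteases and 9 other enzymes. These groups were drawn up after the values were seen, so they are described and not tested. TIR proteins recognise pathogen molecules or pass on that signal in plant immunity. The median antimycin A change of the 7 genes was 5.29 in wild type, 5.89 in rao2 and 5.59 in anac017-1, and 0.20 in anac017-2, where limma called 0 of 7 (1 at an unadjusted p under 0.05), beside 6.90% of all probe sets higher and 8.39% lower. A count of 0 among 7 genes is near those shares. Over all 22746 probe sets, 2784 were higher and 3216 lower in that comparison at an unadjusted p under 0.05. Under hydrogen peroxide the medians were 1.94, 1.22, 0.39 and 0.43 in wild type, rao2, anac017-1 and anac017-2. AT3G04220, a TIR receptor with leucine-rich repeats, stood at 7.59, 8.22 and 7.16 in wild type after antimycin A, but at 2.48, 2.50 and 2.49 in anac017-2, level with its water arrays of 2.48, 2.49 and 2.53 (-0.01 ± 0.35; adjusted p = 1). AT2G20142, another TIR protein, stood at 9.35, 9.91 and 9.27 in wild type and at 4.30, 2.84 and 4.47 in anac017-2, where water gave 3.61, 3.62 and 3.78.

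The 4 calcium sensors had changes of -0.90 to 0.69 in anac017-2 after antimycin A. Calmodulin-like proteins bind calcium and pass the signal to other proteins. CML37 stood at 2.39, 2.41 and 2.36, with 2.31, 2.37 and 2.41 after water, all below the array's lower quartile. CML41, which acts at plasmodesmata, stood at 4.29, 3.75 and 3.81, with 3.83, 3.83 and 3.93 after water. AT3G01830 stood at 3.77, 5.10 and 6.84, within reach of its water arrays at 6.11, 6.59 and 5.71, and AT5G39670 at 3.36, 2.90 and 3.11 against 1.87, 3.68 and 1.76. Of the 4, limma called 0 (adjusted p from 0.667 to 1; 0 at an unadjusted p under 0.05), beside 6.90% of all probe sets higher, and a count of 0 among so few genes is near that share. After hydrogen peroxide it called 0 as well, beside 4.18% of all probe sets higher, with CML41 nearest at 1.90 ± 0.64 (adjusted p = 0.0617). At an unadjusted p under 0.05, 1 of the 4 was higher, beside 2397 of 22746 probe sets. CML41 passed without replicate 1 (0.0448) or replicate 3 (0.0338) of the spray.

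The 8 kinases and phosphatases had a median antimycin A change of 0.66 in anac017-2, with 7 of them above 0. There limma called 1 higher and 0 lower, beside 6.90% and 8.39% of all probe sets. At an unadjusted p under 0.05 the counts were 3 and 1, beside 2784 and 3216 of all 22746 probe sets. Among kinases, B120, a lectin receptor-like kinase, was at 9.55, 9.67 and 9.95 in wild type after antimycin A, with 5.27, 5.50 and 6.24 after water. In anac017-2 its antimycin A arrays were at 5.21, 5.50 and 6.14, mixed with the water arrays at 5.24, 5.56 and 5.74. CCR2, a cinnamoyl-CoA reductase of lignin synthesis, showed a wide gap between the sprays: 9.27, 9.45 and 9.93 after antimycin A and 6.22, 5.48 and 4.50 after hydrogen peroxide in wild type, with water at 3.74, 3.26 and 4.11. In anac017-2 it stood at 4.12, 2.35 and 4.14 after antimycin A and at 4.48, 2.51 and 2.49 after hydrogen peroxide, both overlapping the water arrays at 3.50, 3.59 and 2.49. Of the 9 other enzymes, 2 rose, 1 fell (the glucan hydrolase AT3G04010) and 6 were not called in anac017-2 after antimycin A. Over all probe sets, 6.90% were called higher and 8.39% lower in that comparison. The glutaredoxin AT5G18600 rose by 2.79 ± 0.68 (adjusted p = 0.0059) and the acetyltransferase-like AT2G32030 by 2.30 ± 0.43 (adjusted p = 0.000685) there. In AT3G48640 and AT2G20670 single arrays lay far apart. AT3G48640 was at 1.80, 6.53 and 4.28 in anac017-2 after hydrogen peroxide, around its water arrays at 3.94, 5.15 and 2.10. AT2G20670 was at 2.30, 2.51 and 8.53 in anac017-2 after antimycin A, and its change of 0.88 ± 1.39 (adjusted p = 0.881) was not called.

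Lists of genes known for such responses were also counted, each gene by its brightest probe set and whether or not it was a member. Only probe sets with 1 gene in the gene table were looked up, so measured means found there. Listed genes among the 58 members with no entry, or the 3 with several genes, would be missed in these counts. Of 26 calcium genes listed, 12 were measured and 4 were members. In anac017-2 limma called 0 of the 12 after antimycin A and 0 after hydrogen peroxide (1 and 2 higher at an unadjusted p under 0.05), and 3 were called higher in rao2 after hydrogen peroxide. Over all probe sets in anac017-2, 6.90% were called higher and 8.39% lower after antimycin A, and 4.18% and 4.84% after hydrogen peroxide. At an unadjusted p under 0.05, 2784 and 2397 of 22746 probe sets were higher after antimycin A and hydrogen peroxide. In rao2, 5.12% were called higher after hydrogen peroxide. A count of 0 among 12 genes is near the anac017-2 shares. The list of 34 ethylene response factors, which does not hold the member AT4G28140, had 3 measured, with AT1G22810 as its 1 named member. Of 17 ubiquitin ligases of the PUB and ATL types, 8 were measured and none was a named member, with 2 called higher in anac017-2 after antimycin A. The mitochondrial dysfunction stimulon, which holds known ANAC017 targets, had 10 of 16 genes measured and no named member. In anac017-2, 3 of these 10 rose after antimycin A and 0 were called after hydrogen peroxide (2 at an unadjusted p under 0.05), with medians of 1.15 and 0.53. Of 17 heat stress genes, 3 were measured and none was a named member. All 3 fell in anac017-2 after antimycin A (median -3.77). All 3 were also called higher in its water arrays than in wild type (median 2.15), beside 0.426% of all probe sets. Of 26 WRKY factors, 14 zinc finger regulators and 24 detoxification genes, 3 each were measured, with no named members. The zinc finger gene STZ met the rule, however, and was left out by name. In anac017-2 after antimycin A 1 of the 9 genes measured from these lists fell, the alkenal reductase AER. No gene of the lists of NAC factors, VQ and JAZ regulators, kinase signalling or trehalose phosphate synthases had a named probe set.

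Probe sets next to the members under the rule were set beside them without a test. One such part was the 60 probe sets raised by both sprays but short of 50% in rao2 or anac017-1. Of these, 15 were called higher in anac017-2 after antimycin A (6.90% of all probe sets) and 10 lower (8.39%), with a median of 0.91. After water 17 were called higher in anac017-2 than in wild type (0.426%), with a median of 1.22 against 0.33 for the members. Another 614 probe sets were raised by antimycin A and kept in both mutants but missed the hydrogen peroxide limits. Their median wild type hydrogen peroxide change was 0.63, and 298 of them were higher on all arrays, beside 3075 of all 22746 probe sets. In anac017-2 after antimycin A, 99 of the 614 were called higher and 15 lower, beside the same 6.90% and 8.39%, with a median of 0.31. Across 12 group means, the genes most like AT4G39670 were AT5G13200 (Pearson r = 0.989), AT5G42470 (0.985), AT1G22810 (0.980), SNF7.1 (0.978) and AT5G10695 (0.977), and 3 of these 5 were members. Most of the group means entered the rule, which makes members alike by choice, so that count of members is a description. Of the 92 members placed on the chromosomes as protein-coding genes, none had another member with 2 or fewer protein-coding genes between them.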

How the data were processed

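Leaf RNA from 36 samples was measured on Affymetrix ATH1 arrays. The deposited values are intensities on a linear scale, 1 for each of 22810 probe sets on each array. The submitters' processing notes name RMA and GCRMA; which of them made these intensities, and with what version, is not given in the sources used here. No scanner files were used here, so background correction and summarization could not be varied. After 64 control probe sets were removed, the deposited intensities were converted to log2, and 22746 probe sets were fitted over all 36 arrays with 1 mean per group (limma 3.58.1 in R 4.3.3, empirical Bayes), with Benjamini-Hochberg adjustment over all 22746. Code for the fit was tested on simulated data. Every array column matched 1 sample by its label, and 0 columns were left unmapped. The gene table gives 1 gene for 13513 probe sets, several for 503 and none for 8730; no gene is named from the last 2 kinds.

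The members, the gene lists and the role groups were chosen with earlier results of these data known, and the role groups and the background limit (an array's lower quartile) were set after values were seen. Genes were named by rule: the 12 members with the largest smaller wild type change, members on the gene lists, up to 4 called each way with the lowest p in the water, spray against spray and mutant against mutant comparisons, the 4 called members with the largest and the 4 members with the smallest changes for each spray in anac017-2, and the 3 with the largest and smallest hydrogen peroxide changes in rao2 and anac017-1. AT5G65300, AT5G18600, AT2G32030 and the genes just inside or outside a limit were named besides, the first 3 after their values were seen. With 3 arrays per group, precision is limited by their number.

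Samples with the same replicate number were checked for pairing. Deviations from group means correlated between -0.334 and 0.272 for equal numbers, no comparison had every pair above 0.1, and the numbers were not taken as pairs. Alternatives were array scaling, raised low values, array weights, a filter on low probe sets, a replicate block, smaller fits, other thresholds and single arrays left out. Bounds for members not above background and the test of the difference between rao2 and anac017-1 responses were added after seeing the data. Promoter sequences were not analysed here.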

Additional observations from a re-analysis of the deposited data

Results flagged for a closer look

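In 9 members all 3 antimycin A arrays of anac017-2 lay below all 3 of its water arrays, while in wild type every antimycin A array lay above the water arrays, as the rule required. Of these, 7 have 1 gene. The anac017-2 and wild type changes in log2 were -2.05 and 5.61 for AT4G22980, -1.69 and 4.22 for AT1G08050, -1.25 and 4.27 for AT2G29065, -1.13 and 2.27 for AT3G04010, -1.02 and 4.23 for AT1G76070, -0.68 and 2.69 for AT3G03440, and -0.33 and 2.22 for AT5G57910. The difference between the genotypes was not tested, because the wild type change chose the members. Within anac017-2, limma called the fall for AT4G22980, AT1G08050, AT2G29065 and AT3G04010 (adjusted p = 0.00988, 0.0235, 0.00839 and 0.0122) and not for AT1G76070 (0.0642), AT3G03440 (0.366) or AT5G57910 (0.438). On all arrays, 19.2% of probe sets were lower in this comparison, a larger share than 9 of the 154 members.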

How the results depend on the processing

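Array scaling (quantile or median), the filter on low probe sets and the replicate block left every count of called members within 1.5 times its value, and no call of a named gene changed direction under any alternative. With the replicate block in the fit, the counts higher and lower were 46 and 8 for antimycin A and 42 and 0 for hydrogen peroxide in anac017-2, 4 and 21 for antimycin A against hydrogen peroxide, 55 and 0 in rao2 and 12 and 0 in anac017-1 after hydrogen peroxide, 5 and 1 for rao2 against anac017-1, and 10, 1 and 22 higher with 0 lower after water in anac017-2, rao2 and anac017-1. The difference of rao2 and anac017-1 responses had 0 calls either way with it. Shares over all probe sets were not counted for the other fits, single arrays left out or an adjusted p under 0.01. Whether calls over all probe sets changed alike is thus not known, and the member counts under these alternatives are descriptions only.

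With low values raised to the lower quartile, the rao2 water count was 0. Array weights gave 24 called higher in anac017-1 after hydrogen peroxide, 12 higher and 2 lower for rao2 against anac017-1, 32 higher and 2 lower in anac017-2 and 28 higher and 1 lower in anac017-1 after water. Fits on the arrays of the compared groups alone, which hold fewer arrays, gave 15, 13 and 3 higher after hydrogen peroxide in anac017-2, rao2 and anac017-1, 3 for rao2 against anac017-1, and 2, 0 and 4 after water in anac017-2, rao2 and anac017-1. For antimycin A against hydrogen peroxide in anac017-2 they gave 0 higher and 0 lower in limma, with 12 and 30 at an unadjusted p under 0.05.

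At an adjusted p under 0.01 the counts were 24 higher and 3 lower for antimycin A and 14 higher for hydrogen peroxide in anac017-2, 0 higher and 12 lower for antimycin A against hydrogen peroxide, 31 in rao2 and 2 in anac017-1 after hydrogen peroxide, 2 higher and 0 lower for rao2 against anac017-1, and 4, 0 and 9 after water in anac017-2, rao2 and anac017-1. Limits of 1.5 and 1 on the wild type changes chose 301 members, of which 88 and 78 were called higher in anac017-2 after antimycin A and hydrogen peroxide, 8 higher and 35 lower for the sprays against each other, 92 and 18 higher in rao2 and anac017-1 after hydrogen peroxide, 6 lower for rao2 against anac017-1, and after water 14 higher in anac017-2 and 37 higher and 2 lower in anac017-1. A higher mutant share chose 95 members, with 25 higher and 0 lower in anac017-2 after antimycin A, 24 higher after hydrogen peroxide, 2 higher and 12 lower for the sprays against each other, 31 and 7 higher in rao2 and anac017-1, 0 lower for rao2 against anac017-1, and 2, 0 and 3 higher after water.

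When single arrays of the groups compared were left out, the counts ran from 25 to 37 higher and 4 to 7 lower for antimycin A in anac017-2, 18 to 43 for hydrogen peroxide, 1 to 7 higher and 10 to 21 lower for the sprays against each other, 35 to 51 in rao2 and 2 to 9 in anac017-1, 2 to 5 higher and 0 to 1 lower for rao2 against anac017-1, and 4 to 9, 0 to 2 and 10 to 26 after water. The rule itself gave 136 members, 113 of them shared, without wild type water replicate 1 and 201, 143 shared, without replicate 3. For single named genes that were called, alternatives with all arrays kept the call in 451 cases and lost it in 67, and leaving out 1 array of the groups compared kept it in 307 and lost it in 137. Genes not called gained a call in 17 and 8 cases, and 9 moved by more than the spread. Many members were near background after water, where small intensities spread widely in log2.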
